A study of Mus musculus with 12 samples.

Results

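Solute carriers are the membrane proteins that move sugars, amino acids, metals, nucleosides, vitamins and ions across the plasma membrane and across the membranes of lysosomes, mitochondria and the secretory pathway. Most of their genes carry systematic symbols, Slc with a family number and a member number. The genes described here were chosen by that symbol pattern, by annotation as protein-coding, and by level: a mean of at least 5 CPM (a gene's count scaled to a fixed library total) in any of the 4 groups of the study. Of the 43346 genes in the count table, 340 protein-coding genes matched the pattern; 185 stayed under the level in every group and 8 others, among them Slc2a1, Slc7a11 and Slc40a1, were left out by name, which leaves 147 members. Since level chose the members, level is given as a description. Just inside the limit lay Slc6a9, with 5.30 CPM in its highest group, Slc9a5 with 5.68 and Slc1a2 with 5.79, and just outside lay Slc25a23 with 4.80, Slc39a4 with 4.62 and Slc25a14 with 4.52. Over all 12 libraries, 138 members had a mean of at least 5 CPM, a limit that names no group. These are counted and tested, and the other 9 are given by level. A high level in a single group can still carry a member over this limit, as it did for Slc13a3. The symbols do not follow function everywhere: Slc4a1ap, Slc7a6os, Slc9a3r1 and Slc9a3r2 were named after a carrier and encode none, which leaves 143 transporter genes. The pattern also misses carriers with lettered subfamilies or other symbols.

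RNA was sequenced from cultured peritoneal macrophages of C57BL/6 mice, either wild type (WT) or knockout for CD36 (CD36 KO), a scavenger receptor for oxidized lipoproteins and fatty acids. Cells of each genotype were kept in control medium or given oxidized low-density lipoprotein (oxLDL), which loads macrophages with lipid, with 8 h of exposure at 20 µg/ml. There were 3 libraries in each of the 4 groups, and all cells were grown in RPMI1640 with fetal bovine serum. The labels do not say which part of Cd36 was removed, how the cells were purified, or whether replicates were separate animals or cultures, so a p-value here measures the spread between these libraries, which may be technical. In bulk RNA, fewer cells of a type and less RNA per cell cannot be told apart.

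A macrophage uses solute carriers at several membranes. Carriers of the plasma membrane bring in sugars, amino acids and metals, carriers of the lysosome release what digestion of engulfed material sets free, and carriers of the inner mitochondrial membrane exchange metabolites between cytosol and matrix. SLC11A2 and SLC39A14 import iron, SLC48A1 moves heme, SLC15A3 carries histidine and small peptides in the lysosome, and SLC3A2 is the heavy chain that holds several amino acid exchangers in the plasma membrane.

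Libraries held 35257762 to 65135955 counts, of which members took 1.08% to 1.28%. Levels below are TMM-scaled CPM unless RPKM, the authors' length-normalized value, is named. Cd36 lay at 5265 to 5475 CPM in WT control and 1899 to 3825 in WT oxLDL, while CD36 KO cells had 455 to 511 in control medium and 190.3 to 204 under oxLDL, so it was lower but not at 0 in every knockout library. Replicate 1 of WT oxLDL stood apart: its correlation with the other libraries of its group was as low as 0.952, against 0.9885 or more within the other groups, and its TMM factor of 0.729 was the lowest. Markers of macrophages summed to 15030 CPM or more in every library. Macrophage markers and those of other cells moved with genotype. In control medium Csf1r was lower in CD36 KO (-0.51 ± 0.10), and under oxLDL Csf1r (-0.60 ± 0.10), Cd14 (-0.93 ± 0.20) and Fcgr1 (-3.10 ± 0.29) were lower, 3 of 7 tested. Markers of large peritoneal macrophages summed to 763 to 792 CPM in WT control and 577 to 638 in CD36 KO control. These sums were nearly all Cd9, at 742.9 to 776.5 and 542.1 to 606.5 CPM. In CD36 KO control Cd9 was called lower (-0.42 ± 0.11), while Timd4 (2.97 ± 0.27) and Gata6 (1.03 ± 0.24) were called higher. Timd4 was low, with means of 0.169 CPM in WT control and 1.335 in CD36 KO control. Under oxLDL the sums, again mostly Cd9, were 439.5 to 518 and 429.7 to 510.1 CPM. There Gata6 (1.12 ± 0.25) was higher and Icam2 (-1.01 ± 0.25), Selp (-1.02 ± 0.20) and Alox15 (-1.86 ± 0.38) were lower. B cell markers summed to 16.9 to 40.05 CPM in WT control and 111 to 283 in CD36 KO control, with 6 of 6 called higher. Mesothelial and fibroblast markers summed to 720.0 to 1213 CPM and 1829 to 3202 CPM, with 3 of 9 called higher, and mast cell markers to 1.775 to 2.41 CPM and 6.21 to 7.42 CPM, with 3 of 4 tested called higher. The mesothelial and fibroblast sums were mostly Col1a1 and Col1a2, with means of 312 and 397 CPM in WT control. In CD36 KO control these were 935 and 1006 CPM, while Krt19 was lower there and not called (-1.06 ± 0.47). Neutrophil markers, of which 2 of 3 tested rose with oxLDL in both genotypes, were nearly all S100a8, and Ly6g, which defines neutrophils, was at 0.0533 CPM or less in every library. The part of other cells, or of a different mix of macrophages, in the results below was not tested.

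By RPKM, as a mean over all 12 libraries, the most abundant member was Slc15a3 at 266, followed by the ADP and ATP carrier Slc25a5 of mitochondria at 192, Slc3a2 at 184, Slc48a1 at 175, the taurine transporter Slc6a6 at 137, the copper transporter Slc31a2 at 112 and the zinc importer Slc39a1 at 101. Lysosomal, mitochondrial and plasma membrane carriers all stood among the highest. Of these, Slc25a5 was called in neither oxLDL comparison, at 336 ± 7.51, 362 ± 111, 289 ± 14.2 and 288 ± 32.9 CPM (SD, n = 3) in WT control, WT oxLDL, CD36 KO control and CD36 KO oxLDL.

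Under oxLDL, 41 of the 138 tested members rose and 23 fell in WT cells (edgeR quasi-likelihood test, Benjamini-Hochberg adjusted p under 0.05 over all 16281 genes tested). Among the 10223 tested genes with a mean of at least 5 CPM, 22.9% rose and 17.5% fell, and of the members 29.7% and 16.7%. In CD36 KO cells 27 members rose and 24 fell, which is 19.6% and 17.4% of members beside 14.1% and 14.4% of all such genes. The median log2 fold change of the members was 0.04 in WT and -0.02 in CD36 KO, beside 0.06 and -0.02 over all such genes. The share that fell was near the background in WT, and the share that rose lay above it in both genotypes. The split in WT depended on scaling: with upper-quartile factors the median over all such genes went from 0.06 to -0.06, and 32 members rose and 37 fell. Without replicate 1 of WT oxLDL, 55 rose and 35 fell in WT and 41 rose and 42 fell in CD36 KO, and the 64 and 51 members called with all libraries were all called again.

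**Figure D1:**
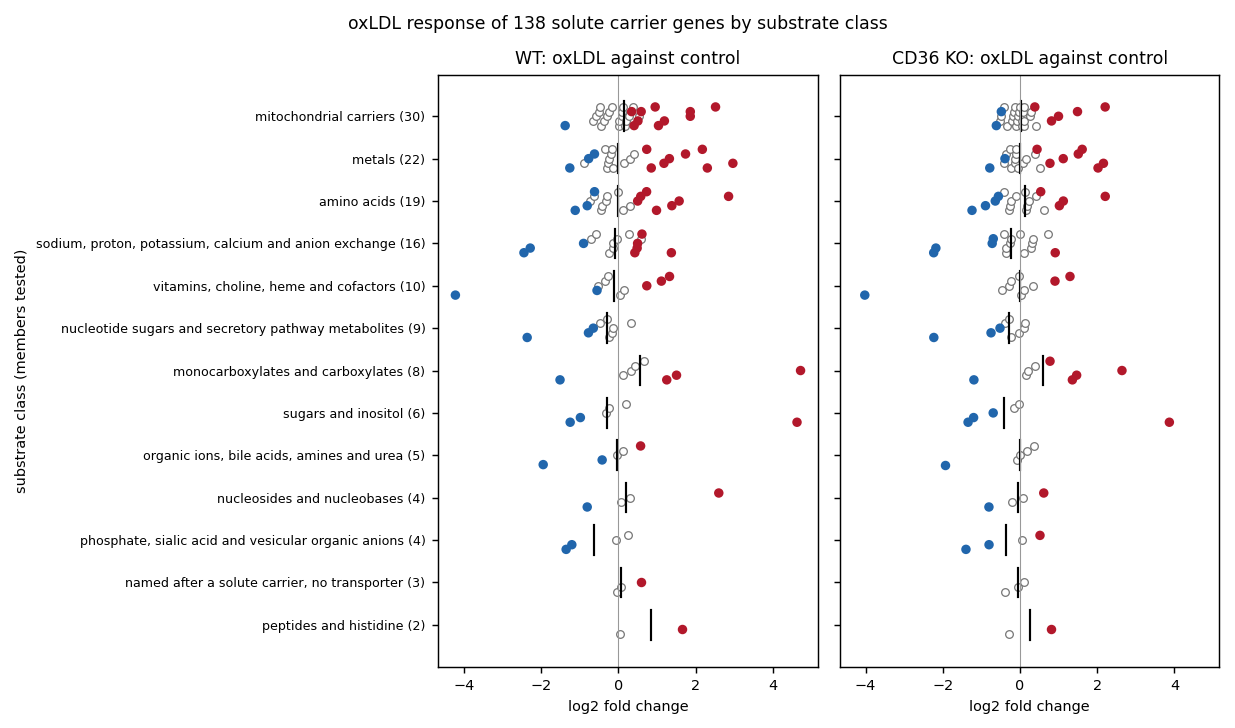
Log2 fold change under oxLDL (x axis) of the 138 tested members by substrate class (y axis, number of members in brackets), WT on the left and CD36 KO on the right. Red points rose and blue points fell at an adjusted p under 0.05, open points did not pass, and the black bar is the class median. Most classes hold members on both sides of 0.

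In most substrate classes some members rose while others fell. In WT, metal transporters had 8 of 22 members higher and 3 lower (median log2 fold change -0.0032), amino acid transporters 7 of 19 higher and 3 lower (median -0.0014), and mitochondrial carriers 10 of 30 higher and 1 lower (median 0.13). With upper-quartile factors these splits were 8 and 7, 5 and 5, and 7 and 4. In CD36 KO the same classes had 7 higher and 2 lower, 4 and 4, and 5 and 2, with medians of 0.01, 0.12 and 0.02. Of 9 transporters of nucleotide sugars and other secretory pathway metabolites, 3 fell in each genotype, with class medians of -0.30 and -0.29.

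The summed RPKM of a class describes its total transcript level. Metal transporters summed to 334, 334 and 332 RPKM in the WT control libraries and 588, 616 and 617 in WT oxLDL. In CD36 KO they summed to 367, 364 and 366 RPKM in control medium and 607, 597 and 593 under oxLDL. Every oxLDL library lay above every control library. The secretory pathway class went the other way, from 186, 182 and 187 to 65.2, 73.9 and 72.8 RPKM in WT and from 176, 185 and 182 to 85.3, 79.95 and 74.5 in CD36 KO, again with no overlap. In control medium most of that class was Slc37a2, with a mean of 108 RPKM in WT control and 16.2 in WT oxLDL and of 106 and 20.1 in CD36 KO. RPKM carries no TMM scaling, and dividing it by each library's TMM factor, an alternative added after seeing the data, left the separations of these classes, and of the sugar and the nucleoside sums given further on, as they were. It turned the direction of the amino acid sums in CD36 KO and of 3 classes in both genotypes. These 3 were the mitochondrial carriers, the ion exchangers and cotransporters, and the class of organic ions, bile acids, amines and urea. Mitochondrial carriers summed to 647 ± 6.10 RPKM in WT control and 587 ± 59.5 in WT oxLDL as deposited (SD, n = 3), and to 620.2 ± 8.68 and 733 ± 145 with the scaling. In CD36 KO they summed to 655 ± 10.3 and 616 ± 11.7 as deposited and to 567 ± 13.1 and 601 ± 29.9 with the scaling. Amino acid transporters summed to 603 ± 2.50 and 627 ± 43.96 RPKM as deposited in WT and to 578 ± 12.6 and 775 ± 17.6 with the scaling. In CD36 KO their deposited sums of 677 ± 11.4 and 662 ± 38.3 became 586 ± 13.6 and 645 ± 19.4.

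Among metal transporters, copper, iron and zinc carriers gave the largest rises, and other zinc carriers fell. Slc31a2 (chr4:62262562-62298411, mm10), which encodes the intracellular copper transporter CTR2, stood at 60.1, 66.5 and 67.6 CPM in WT control and at 613, 446 and 458 in WT oxLDL. In CD36 KO it stood at 83.4, 65.2 and 81.2 CPM in control medium and at 325, 323 and 380.1 under oxLDL. All oxLDL libraries lay above all control libraries, with log2 fold changes of 2.97 ± 0.16 (SE) in WT (adjusted p = 8.75e-08, edgeR) and 2.16 ± 0.16 in CD36 KO (adjusted p = 1.21e-06). Slc31a1, which encodes the plasma membrane copper importer CTR1, lies 62316 bases away on the same strand (chr4:62360727-62391769) and was singled out after its values were seen. It stood at 93.5, 92.8 and 90.5 CPM in WT control and 364, 427 and 458 in WT oxLDL, and at 94.0, 89.0 and 101 and then 261, 300.1 and 307 in CD36 KO. It rose by 2.17 ± 0.12 on the log2 scale in WT and 1.61 ± 0.12 in CD36 KO, with no overlap between media. Under oxLDL both copper transporters were lower in CD36 KO than in WT, with log2 differences of -0.56 ± 0.15 and -0.53 ± 0.12. The call for Slc31a2 was lost without CD36 KO oxLDL replicate 1 or 2, at -0.52 both times.

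The promoters of both copper transporters and of Slc2a6, the tested member with the largest rise in CD36 KO, are shown because these genes rose in every oxLDL library. Each run holds the 250 bases before the gene start in RefSeq on GRCm38.p6, 5′ to 3′ on the gene's own strand. That start can differ from the GENCODE interval given with a gene: the window of Slc31a2 lies inside its interval, and that of Slc13a3, shown further on, overlaps the end of its interval. Distances are counted from the RefSeq start. Capitals mark matches on either strand to GGGNNTTTC (NF-kB) or TGACNNNGC (the antioxidant response element bound by NRF2).
Slc2a6, chr2:27027999-27028248, minus strand: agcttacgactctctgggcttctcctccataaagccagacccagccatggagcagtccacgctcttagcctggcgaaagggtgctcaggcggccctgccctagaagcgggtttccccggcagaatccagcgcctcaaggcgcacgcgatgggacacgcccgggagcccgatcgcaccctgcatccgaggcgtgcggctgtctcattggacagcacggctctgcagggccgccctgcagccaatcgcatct
Slc31a1, chr4:62360451-62360700, plus strand: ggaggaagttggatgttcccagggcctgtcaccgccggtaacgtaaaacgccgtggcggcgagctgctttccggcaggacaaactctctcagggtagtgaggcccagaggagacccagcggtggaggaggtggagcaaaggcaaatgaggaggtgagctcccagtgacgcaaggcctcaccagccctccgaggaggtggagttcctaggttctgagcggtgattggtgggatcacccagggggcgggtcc
Slc31a2, chr4:62286179-62286428, plus strand: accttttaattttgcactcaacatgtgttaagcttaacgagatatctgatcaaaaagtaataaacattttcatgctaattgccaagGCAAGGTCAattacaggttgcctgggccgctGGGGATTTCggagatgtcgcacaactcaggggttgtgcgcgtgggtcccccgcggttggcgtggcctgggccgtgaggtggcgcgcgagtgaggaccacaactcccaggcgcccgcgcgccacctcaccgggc
Slc31a2 held GGGNNTTTC 133 to 125 bases and TGACNNNGC, on the opposite strand, 164 to 156 bases before the RefSeq start. In Slc2a6 and Slc31a1 there was no match to either, and in all 3 windows none to TGANTCA (AP-1), CACGTG (E-box) or GAAANNGAA (interferon-stimulated response element). Of 32851 RefSeq windows of this length, 3.72% held GGGNNTTTC, 10.2% TGACNNNGC, 6.75% TGANTCA, 6.02% CACGTG and 7.13% GAAANNGAA. Of the 152 windows matched to 110 members, 3.95%, 17.1%, 6.58%, 13.2% and 5.92% did. Base composition was not matched between these sets, and a match is only a match of letters.

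Slc39a14, the importer ZIP14 for zinc and iron, stood at 18.1, 18.8 and 17.4 CPM in WT control and at 67.2, 104 and 96.0 in WT oxLDL. In CD36 KO it stood at 21.8, 23.1 and 20.9 CPM in control medium and at 99.3, 94.4 and 73.3 under oxLDL. The genotypes overlapped under oxLDL, and the rises were 2.30 ± 0.18 in WT and 2.02 ± 0.17 in CD36 KO. Slc25a37, which encodes the mitochondrial iron importer mitoferrin-1 and is counted among the mitochondrial carriers, went from 27.3, 33.2 and 30.5 CPM to 115, 219.7 and 186 in WT and from 59.4, 43.6 and 42.0 to 258, 251 and 159.9 in CD36 KO. Its log2 fold changes were 2.52 ± 0.26 and 2.21 ± 0.26, and no control library reached an oxLDL library. Its paralogue Slc25a28, mitoferrin-2, gave 1.04 ± 0.27 in WT, where replicate 1 was high at 54.3, 25.6 and 21.9 CPM, and 0.54 without that replicate. In CD36 KO Slc25a28 gave 0.05 ± 0.27 (adjusted p = 0.92).

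Slc11a2, the proton-coupled iron importer DMT1, rose from 78.0 ± 3.79 to 260.2 ± 23.7 CPM in WT and from 81.5 ± 5.36 to 232 ± 10.3 in CD36 KO (SD, n = 3). Among zinc carriers, Slc39a1 rose in both genotypes (1.18 ± 0.11 and 0.78 ± 0.11), as did Slc30a6 (1.32 ± 0.14 and 1.12 ± 0.14). Slc11a2, Slc25a28, Slc39a1 and Slc30a6 were named after their values were seen. The importer ZIP8, encoded by Slc39a8, fell from 6.49 ± 0.739 to 2.69 ± 0.731 CPM in WT and from 6.84 ± 0.131 to 3.97 ± 0.173 in CD36 KO. Slc39a8 lay above 5 CPM only in the control groups, so the high level there is part of how it came to be tested. Slc39a11 fell in CD36 KO (log2 fold change -0.39 ± 0.10), a call lost without CD36 KO control replicate 3 or CD36 KO oxLDL replicate 1 or 2, at -0.37 to -0.33. Slc30a5, a zinc carrier of the secretory pathway, fell in WT (log2 fold change -0.77 ± 0.20), at -0.50 without WT oxLDL replicate 1.

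Sugar transporters held the member with the largest rise in CD36 KO among the tested members. Slc2a6 (chr2:27021363-27027998), the lysosomal glucose transporter family member GLUT6, stood at 22.1, 26.8 and 25.6 CPM in WT control and at 909.5, 446 and 483 in WT oxLDL. In CD36 KO it stood at 21.2, 17.8 and 19.2 CPM in control medium and at 221, 277 and 352 under oxLDL. The media did not overlap, and the rise was 24.7-fold in WT (log2 4.63 ± 0.29) and 14.6-fold in CD36 KO (3.87 ± 0.28). Under oxLDL all CD36 KO libraries lay below all WT libraries (log2 difference -1.11 ± 0.26, adjusted p = 0.00961). Without WT oxLDL replicate 1 the difference was -0.73 and still called, but with only the oxLDL libraries fitted it was -1.11 and not called (adjusted p = 0.0940). The difference between the responses was not called (-0.76 ± 0.36, adjusted p = 0.503). The 6 sugar and inositol transporters summed to 36.6, 38.8 and 39.5 RPKM in WT control and 229.6, 137 and 142 in WT oxLDL, and to 40.2, 38.8 and 36.8 and then 96.2, 108 and 124 in CD36 KO.

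Other members of the sugar class fell. Slc45a4 went from 59.6 ± 2.57 to 25.05 ± 1.56 CPM in WT and from 52.6 ± 2.30 to 20.7 ± 1.93 in CD36 KO. Slc2a8, the intracellular glucose transporter GLUT8, went from 15.9 ± 1.24 to 8.08 ± 3.41 CPM and from 12.8 ± 0.669 to 5.55 ± 0.310 CPM. Slc2a9, a urate transporter of the same family, fell in CD36 KO (-0.69 ± 0.18; -0.63 and not called without CD36 KO control replicate 1) and gave -0.33 ± 0.18 in WT (adjusted p = 0.165).

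**Figure D2:**
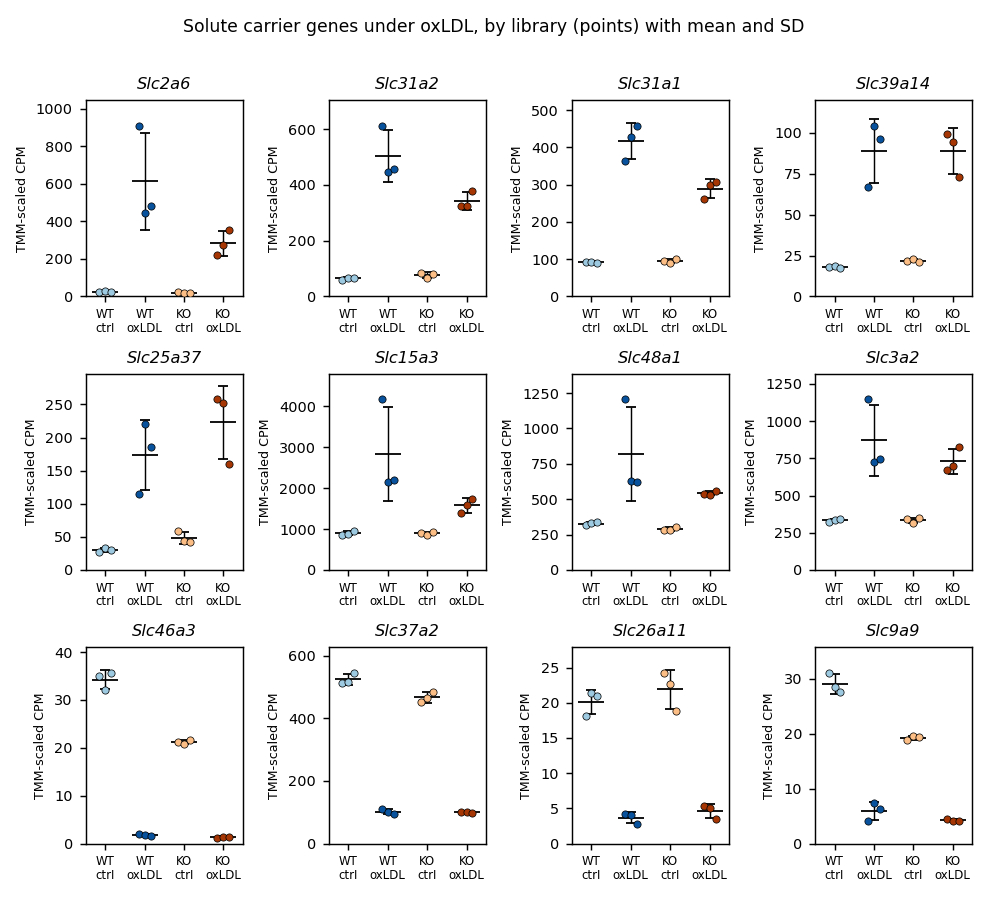
TMM-scaled CPM (y axis, from 0) of 12 members in the 4 groups (x axis). Points are libraries, the horizontal bar is the mean and the whiskers are the SD of 3 libraries. In the 8 genes from Slc2a6 to Slc3a2 every oxLDL library lies above the control libraries of its genotype, and in Slc46a3, Slc37a2, Slc26a11 and Slc9a9 every one lies below.

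Among amino acid transporters, the heavy chain and a light chain rose. Slc3a2 stood at 324, 334 and 344 CPM in WT control and 1146, 725 and 744 in WT oxLDL, and at 340.3, 317 and 349 and then 669, 695 and 827 in CD36 KO. Both genotypes rose without overlap, by 1.38 ± 0.17 and 1.12 ± 0.17. Slc7a8, the light chain LAT2 for neutral amino acids, went from 169 ± 1.28 to 504 ± 109.8 CPM in WT and from 147 ± 14.6 to 299 ± 26.01 in CD36 KO (SD, n = 3). Slc6a12, a betaine and GABA transporter, was low and went from 1.21, 1.11 and 1.16 CPM to 8.46, 8.25 and 8.51 in WT and from 2.61, 1.80 and 1.95 to 10.01, 10.04 and 9.36 in CD36 KO. Its oxLDL libraries all lay above its control libraries, with rises of 2.85 ± 0.16 and 2.21 ± 0.15. Only the oxLDL groups lay above 5 CPM, so the high level there is part of how Slc6a12 came to be tested.

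Slc7a7, the light chain y+LAT1 for cationic amino acids, stood at 30.95, 29.9 and 30.4 CPM in WT control and 81.7, 50.8 and 48.5 in WT oxLDL, a rise of 0.99 ± 0.18. In CD36 KO it stood at 26.6, 27.2 and 29.1 CPM and then 27.2, 30.4 and 32.7, which overlap (0.12 ± 0.18, adjusted p = 0.668). The difference between these responses was -0.86 ± 0.26 (adjusted p = 0.185), and -0.60 and called without WT oxLDL replicate 1.

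Several amino acid transporters fell. Slc36a1, a proton-coupled exporter of lysosomes, went from 118 ± 4.04 to 67.6 ± 14.4 CPM in WT and from 154 ± 8.82 to 65.2 ± 13.98 in CD36 KO. Slc43a2, the facilitated transporter LAT4, went from 298 ± 6.498 to 137 ± 33.1 CPM in WT and from 273 ± 3.12 to 185 ± 34.05 in CD36 KO. The taurine transporter Slc6a6 stood at 999.9, 1029.9 and 1073 CPM in WT control and 525, 991 and 969 in WT oxLDL, and at 952, 913 and 973 and then 490.2, 588 and 448 in CD36 KO. In WT replicate 1 alone was far below the control libraries, while in CD36 KO all oxLDL libraries were. It fell in CD36 KO (-0.89 ± 0.21, adjusted p = 0.00676) and gave -0.32 ± 0.20 in WT (adjusted p = 0.24). The difference between the responses was -0.57 ± 0.29 (adjusted p = 0.539), and -0.83 and called without WT oxLDL replicate 1.

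Histidine and peptides are carried by Slc15a3 and Slc15a4, both of the lysosome. Slc15a3 (chr19:10839727-10859362) stood at 865, 890.5 and 945 CPM in WT control and 4174, 2145 and 2199.7 in WT oxLDL, and at 912, 858 and 925 and then 1393, 1597 and 1747 in CD36 KO. All oxLDL libraries lay above all control libraries, and WT replicate 1 was far the highest. The rise was 1.66 ± 0.23 in WT and 0.81 ± 0.22 in CD36 KO (adjusted p = 0.0167), the latter not called without CD36 KO control replicate 1 or 2 or CD36 KO oxLDL replicate 3, at 0.74 to 0.82. Under oxLDL it was lower in CD36 KO, with a log2 difference of -0.85 ± 0.22, -0.48 without WT oxLDL replicate 1, and not called without CD36 KO oxLDL replicate 1 or 2, at -0.86 to -0.76. Tmem132a, on the opposite strand, shares 28.1% of its exonic bases, and whether counting used the strand is not given in the sources used here. Slc15a4 stood at 47.9 ± 1.57, 49.04 ± 3.11, 45.5 ± 2.22 and 37.6 ± 2.46 CPM (SD, n = 3) in WT control, WT oxLDL, CD36 KO control and CD36 KO oxLDL and was called in neither oxLDL comparison.

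In the class of vitamins, choline, heme and cofactors, the largest fall among the tested members stood beside rises. Slc46a3 (chr5:147878437-147894815), a proton-coupled carrier of the lysosome, stood at 35.1, 32.05 and 35.6 CPM in WT control and 2.08, 1.85 and 1.57 in WT oxLDL. CD36 KO cells had 21.2, 20.8 and 21.6 CPM in control medium and 1.10, 1.43 and 1.40 under oxLDL. Only the control groups lay above 5 CPM, so the high level there is part of how Slc46a3 came to be tested. The media were far apart, with log2 fold changes of -4.22 ± 0.15 in WT (adjusted p = 5.57e-09) and -4.02 ± 0.15 in CD36 KO (adjusted p = 1.34e-08). Slc48a1, the heme transporter HRG1, went from 315, 329 and 338 CPM to 1206, 627 and 625 in WT and from 282, 282 and 305 to 537, 531 and 561 in CD36 KO. It rose in both without overlap, by 1.32 ± 0.22 and 0.91 ± 0.21. Slc44a1, a choline transporter, rose from 135 ± 4.30 to 292 ± 90.0 CPM in WT and from 101 ± 7.37 to 248 ± 20.7 in CD36 KO. The thiamine transporter Slc19a2 was called lower in WT at -0.55 ± 0.19, and gave -0.34 without WT oxLDL replicate 1. Its call was lost without any of the WT control libraries, CD36 KO control replicate 3, or CD36 KO oxLDL replicate 1 or 2, at -0.56 to -0.53.

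Slc37a2 (chr9:37227585-37255738), a sugar-phosphate exchanger of the endoplasmic reticulum, stood at 514, 516 and 545 CPM in WT control and 111, 99.9 and 95.6 in WT oxLDL. CD36 KO cells had 451, 466 and 485 CPM in control medium and 100.3, 101 and 97.003 under oxLDL. All oxLDL libraries lay far below all control libraries, with log2 fold changes of -2.36 ± 0.10 in WT and -2.23 ± 0.10 in CD36 KO. The difference between the responses was 0.13 ± 0.14 (adjusted p = 0.81). Its relative Slc37a3 fell from 32.2 ± 0.594 to 20.5 ± 3.23 CPM in WT and from 32.8 ± 2.13 to 19.5 ± 0.786 in CD36 KO. Slc33a1, which brings acetyl-CoA into the endoplasmic reticulum, fell in WT (-0.78 ± 0.23), at -0.48 without WT oxLDL replicate 1. Its call was lost without WT control replicate 1 or 3, at -0.77 to -0.75, and Gm26850 on the opposite strand overlaps part of its exonic bases.

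The promoters of Slc46a3 and Slc37a2, shown in the same way, belong to the member with the largest fall and to the most abundant member of the secretory pathway class.
Slc46a3, chr5:147894816-147895065, minus strand: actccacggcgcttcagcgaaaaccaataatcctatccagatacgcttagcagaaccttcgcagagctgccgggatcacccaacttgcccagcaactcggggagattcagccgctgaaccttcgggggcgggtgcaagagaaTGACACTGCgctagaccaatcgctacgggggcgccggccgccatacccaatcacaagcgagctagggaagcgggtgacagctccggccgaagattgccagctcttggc
Slc37a2, chr9:37255739-37255988, minus strand: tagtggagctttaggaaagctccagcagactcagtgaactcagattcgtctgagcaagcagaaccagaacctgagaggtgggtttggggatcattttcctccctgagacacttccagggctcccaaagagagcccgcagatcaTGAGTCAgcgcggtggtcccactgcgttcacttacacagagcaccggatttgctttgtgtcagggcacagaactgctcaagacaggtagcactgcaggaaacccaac
The capitals mark TGACNNNGC in Slc46a3, 108 to 100 bases before the start, and TGANTCA in Slc37a2, 107 to 101 bases before it. There was no match to the other motifs in these windows.

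Mitochondrial carriers were called higher more often than lower in WT. Slc25a22, a glutamate carrier, stood at 22.7, 23.7 and 23.6 CPM in WT control and 97.7, 77.6 and 79.3 in WT oxLDL, and at 26.9, 23.98 and 22.8 and then 44.9, 50.5 and 51.6 in CD36 KO. It rose by 1.86 ± 0.13 and 0.997 ± 0.13, and all WT oxLDL libraries lay above the CD36 KO ones. Slc25a33, a pyrimidine nucleotide carrier, went from 2.36 ± 0.0559 to 8.59 ± 2.28 CPM in WT and from 2.67 ± 0.0905 to 7.51 ± 1.34 in CD36 KO, with 14.9% of its exonic bases shared with Gm13068 on the opposite strand. Slc25a33 lay above 5 CPM only in the oxLDL groups, which is part of how it came to be tested. Slc25a13, an aspartate and glutamate carrier, was the mitochondrial carrier called lower in WT. It stood at 48.3, 47.8 and 49.6 CPM in WT control and 12.2, 20.3 and 23.3 in WT oxLDL (-1.38 ± 0.20), and at 26.2, 29.5 and 31.97 and then 19.4, 20.7 and 20.7 in CD36 KO (-0.53 ± 0.19, adjusted p = 0.0641). Its oxLDL libraries lay below its control libraries in both genotypes. Its paralogue Slc25a12, named after its values were seen, rose in WT by 0.95 ± 0.11 and gave 0.26 ± 0.11 in CD36 KO (adjusted p = 0.0987). In CD36 KO Slc25a45 fell (-0.61 ± 0.12), against 0.01 ± 0.12 in WT (adjusted p = 0.932). The NAD carrier Slc25a51 fell in CD36 KO (-0.48 ± 0.14), not called without CD36 KO control replicate 1 or 3 or CD36 KO oxLDL replicate 3, at -0.48 to -0.42.

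Monocarboxylate carriers split by member. Slc16a3, the lactate exporter MCT4, stood at 30.8, 32.3 and 32.4 CPM in WT control and 127, 70.1 and 74.4 in WT oxLDL, and at 47.5, 44.6 and 49.02 and then 114, 132 and 144 in CD36 KO. It rose without overlap, by 1.505 ± 0.20 and 1.47 ± 0.20. Slc16a7, the monocarboxylate carrier MCT2, fell from 23.2 ± 1.12 to 8.11 ± 2.76 CPM in WT and from 17.3 ± 1.54 to 7.56 ± 1.16 in CD36 KO. Slc16a10, a carrier of aromatic amino acids, rose from 119 ± 0.975 to 283 ± 59.8 CPM and from 79.8 ± 4.96 to 204 ± 16.5 CPM.

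Among the 16 ion exchangers and cotransporters, 5 rose and 3 fell in WT and 1 rose and 4 fell in CD36 KO, and with upper-quartile factors the WT split was 3 and 5. Slc26a11, an anion and sulfate transporter, stood at 18.1, 21.3 and 20.9 CPM in WT control and 4.26, 4.001 and 2.79 in WT oxLDL, and at 24.2, 22.6 and 18.9 and then 5.32, 5.10 and 3.52 in CD36 KO. Slc9a9, the endosomal sodium-proton exchanger NHE9, stood at 31.1, 28.5 and 27.5 CPM and then 4.20, 7.33 and 6.27 in WT, and at 18.8, 19.6 and 19.3 and then 4.43, 4.13 and 4.17 in CD36 KO. Both fell without overlap, with log2 fold changes of -2.45 ± 0.21 in WT and -2.24 ± 0.20 in CD36 KO for Slc26a11 and -2.28 ± 0.18 and -2.18 ± 0.18 for Slc9a9. Slc12a4, the potassium-chloride cotransporter KCC1, rose from 71.5 ± 3.65 to 185 ± 15.8 CPM in WT and from 70.9 ± 0.813 to 133 ± 4.66 in CD36 KO. Slc9a8, a sodium-proton exchanger, rose in WT by 0.61 ± 0.12.

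In the small remaining classes, Slc18a1, the vesicular monoamine transporter VMAT1, went from 11.2 ± 0.287 to 2.88 ± 0.212 CPM in WT and from 12.3 ± 0.875 to 3.22 ± 0.598 in CD36 KO. Slc18a1 lay above 5 CPM only in the control groups, which is part of how it came to be tested. Slc17a5, the lysosomal sialic acid exporter sialin, went from 52.2 ± 0.675 to 20.4 ± 3.46 CPM and from 59.7 ± 4.83 to 22.6 ± 1.23 CPM. Slc17a9, the vesicular nucleotide transporter, fell with log2 fold changes of -1.21 ± 0.15 in WT and -0.80 ± 0.15 in CD36 KO. For Slc29a3, the lysosomal nucleoside transporter ENT3, these were -0.81 ± 0.17 and -0.80 ± 0.17. The phosphate importer Slc20a1 rose in CD36 KO by 0.52 ± 0.13, not called without CD36 KO control replicate 2 or 3, at 0.47 to 0.49. Slc10a3 rose in WT by 0.57 ± 0.16, and by 0.37 without WT oxLDL replicate 1; it was not called without WT control replicate 3, at 0.55 to 0.55, and 12.8% of its exonic bases are shared with Ubl4a. The carnitine importer Slc22a5 was called lower in WT at the threshold (-0.42 ± 0.15, adjusted p = 0.0499). It gave -0.23 without WT oxLDL replicate 1, and its call was lost without any library outside WT oxLDL, at -0.44 to -0.39. With only the WT libraries fitted, the WT calls of Slc2a8, Slc30a5, Slc33a1, Slc10a3, Slc19a2 and Slc22a5 were lost, with adjusted p of 0.0538, 0.0843, 0.111, 0.0845, 0.140 and 0.178.

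The responses of the genotypes were then set side by side. Of the 138 members, 25 rose in both and 18 fell in both, 0 were called in opposite directions, 21 were called in WT alone, 8 in CD36 KO alone and 66 in neither. Of the 10223 genes at this level, 1299 rose in both, 1171 fell in both and 7 were called in opposite directions. Among these genes 22.9% rose and 17.5% fell in WT, against 14.1% and 14.4% in CD36 KO. More calls in WT than in CD36 KO were thus not particular to the members. A call in a single genotype does not show that the responses differ. The test of that difference, the interaction, called 0 members with a log2 fold change higher in CD36 KO and 2 with a lower one, Slc28a2 and Slc13a3, where 0.274% and 0.597% of all such genes were called; 23 members had an unadjusted p under 0.05. DESeq2 called 10 members, all lower in CD36 KO. Without WT oxLDL replicate 1 edgeR called 25, of which 21 were lower in CD36 KO, with both genes still called. The share of all such genes called under these alternatives was not counted, so the lean is not shown to be particular to the members. With all libraries the median interaction was -0.06 over the members and -0.09 over all such genes.

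**Figure D3:**
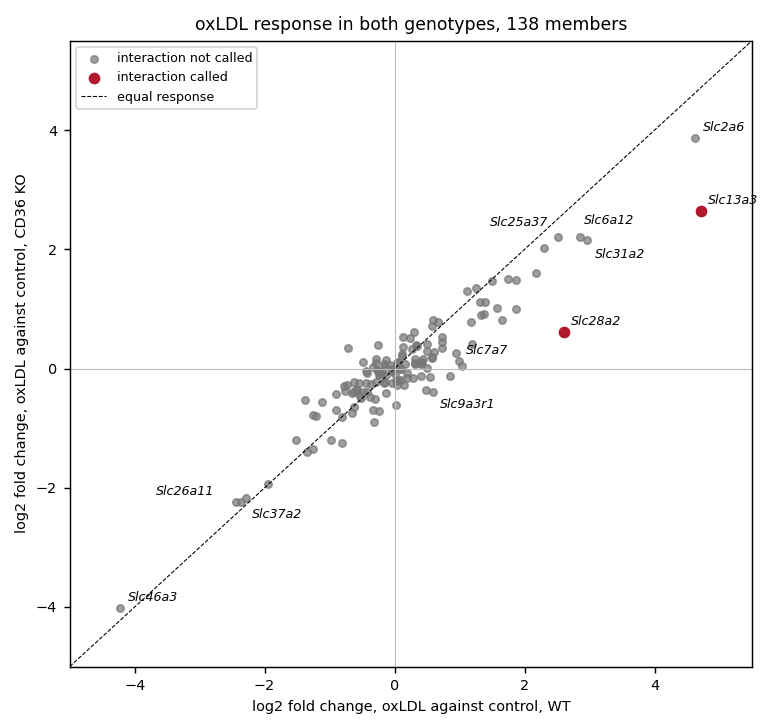
Log2 fold change under oxLDL in CD36 KO (y axis) against that in WT (x axis) for the 138 tested members. The dashed line marks equal responses and red points are members with a called interaction: Slc28a2 and Slc13a3, which lie below the line.

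Slc28a2 (chr2:122426477-122461137), the sodium-coupled purine nucleoside importer CNT2, stood at 59.4, 66.7 and 64.7 CPM in WT control and at 443, 349.5 and 364 in WT oxLDL. In CD36 KO it stood at 64.7, 52.6 and 57.5 CPM in control medium and at 66.3, 89.2 and 112 under oxLDL. The genotypes overlapped in control medium, while under oxLDL every WT library lay above every CD36 KO library. The rise was 6.06-fold in WT (log2 2.60 ± 0.19, adjusted p = 7.65e-07) and 1.53-fold in CD36 KO (0.62 ± 0.18, adjusted p = 0.0231). The responses differed by -1.98 ± 0.25 (adjusted p = 0.00401, edgeR interaction), a difference that ranged from -2.18 to -1.81 and stayed called with each library left out in turn. The small rise in CD36 KO was not called without CD36 KO control replicate 2 or 3 or CD36 KO oxLDL replicate 2 or 3, at 0.42 to 0.62.

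A near-identical copy, Gm14085, named after its values were seen, stood at 4.36 ± 0.0862, 29.8 ± 12.03, 5.14 ± 0.132 and 6.95 ± 1.54 CPM (SD, n = 3) in WT control, WT oxLDL, CD36 KO control and CD36 KO oxLDL. Its interaction was -2.33 ± 0.36 (adjusted p = 0.0127, edgeR). How reads shared by the copies were assigned is not given in the sources used here, so the level of each is uncertain. The nucleoside and nucleobase class summed to 70.8, 71.6 and 71.7 RPKM in WT control and 108, 106 and 103 in WT oxLDL, and to 87.2, 77.4 and 78.8 and then 60.5, 65.0 and 58.4 in CD36 KO. The WT sums were higher under oxLDL and the CD36 KO sums lower.

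Slc13a3 (chr2:165405028-165473230), the sodium-coupled dicarboxylate importer NaDC3, was low in control medium, at 0.806, 0.695 and 0.616 CPM in WT and 0.493, 0.599 and 0.651 in CD36 KO. Under oxLDL it stood at 19.6, 20.5 and 16.1 CPM in WT and 3.88, 3.65 and 3.39 in CD36 KO. All oxLDL libraries lay above all control libraries, and the genotypes did not overlap under oxLDL. Only WT oxLDL lay above 5 CPM, so the high level there is part of how Slc13a3 came to be tested. The log2 fold change was 4.72 ± 0.18 in WT and 2.64 ± 0.18 in CD36 KO, 26.5-fold and 6.26-fold. The responses differed by -2.08 ± 0.24 (adjusted p = 0.00291, edgeR interaction), with a range of -2.19 to -1.99 when each library was left out in turn.

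The promoters of these genes are shown for comparison with those above.
Slc28a2, chr2:122426185-122426434, plus strand: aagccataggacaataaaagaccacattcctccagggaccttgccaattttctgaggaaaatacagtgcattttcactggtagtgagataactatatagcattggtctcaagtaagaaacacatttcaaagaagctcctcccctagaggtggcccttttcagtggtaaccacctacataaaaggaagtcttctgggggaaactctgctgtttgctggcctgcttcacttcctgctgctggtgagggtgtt
Slc13a3, chr2:165473198-165473447, minus strand: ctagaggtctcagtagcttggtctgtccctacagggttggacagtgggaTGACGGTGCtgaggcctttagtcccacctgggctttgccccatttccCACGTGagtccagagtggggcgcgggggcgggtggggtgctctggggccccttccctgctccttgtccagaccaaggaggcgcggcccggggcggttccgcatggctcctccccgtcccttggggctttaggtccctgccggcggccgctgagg
Slc28a2 had no match to the 5 motifs. Slc13a3 held TGACNNNGC 201 to 193 bases and CACGTG 154 to 149 bases before the start, both in capitals.

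Genotypes were compared within each medium. In control medium 6 members were higher and 5 lower in CD36 KO than in WT, which is 4.35% and 3.62% of members beside 5.29% and 2.96% of all genes at this level. Slc7a5, the light chain LAT1 that imports leucine and other large amino acids, stood at 13.2, 12.2 and 10.3 CPM in WT control and 24.003, 29.4 and 22.1 in CD36 KO control. The groups did not overlap, and CD36 KO was higher by 1.08 ± 0.15 on the log2 scale (adjusted p = 0.00117). Slc6a12 was higher by 0.87 ± 0.16 (adjusted p = 0.00467) and Slc46a3 was lower at -0.69 ± 0.13 (adjusted p = 0.00583). These 3 calls held with each library left out in turn.

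The other calls named here for control medium did not hold with every library left out in turn. The nucleobase transporter Slc43a3 (0.88 ± 0.18), the phosphate importer Slc20a2 (0.55 ± 0.13) and the biotin and pantothenate importer Slc5a6 (0.48 ± 0.12) were higher in CD36 KO. Slc25a13 (-0.73 ± 0.19), Slc9a9 (-0.59 ± 0.17), Slc16a10 (-0.57 ± 0.15) and Slc41a3, named after its values were seen (-0.43 ± 0.13), were lower. Slc5a6, Slc25a13, Slc9a9 and Slc16a10 were not called without any of the 6 control libraries, at 0.45 to 0.50, -0.81 to -0.66, -0.63 to -0.55 and -0.61 to -0.53; the call of Slc9a9 was also lost without WT oxLDL replicate 3 or any CD36 KO oxLDL library. Slc43a3 was not called without WT control replicate 2 or 3, at 0.75 to 0.84, and Slc20a2 without these or CD36 KO control replicate 2, at 0.46 to 0.53. Slc41a3 was not called without any of the 6 control libraries, WT oxLDL replicate 2 or 3, or CD36 KO oxLDL replicate 2, at -0.48 to -0.39. The number of calls was 6, 3 and 3 without WT control replicates 1, 2 and 3, and 6, 4 and 5 without CD36 KO control replicates 1, 2 and 3. It was 42 without WT oxLDL replicate 1, which is no library of this comparison but shares the estimate of spread. With the gene-length trend removed 7 members were higher and 14 lower, and with DESeq2 6 and 10. The summed B cell, mast cell, and mesothelial and fibroblast markers given above were higher in the same libraries. The part of these cells in these differences was not tested.

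Under oxLDL 11 members were higher and 27 lower in CD36 KO than in WT, which is 7.97% and 19.6% of members beside 7.55% and 13.7% of all genes at this level. The median log2 difference of the members was -0.11, beside -0.12 over all such genes. With upper-quartile factors the latter was -0.0017, and 17 members were higher and 19 lower. Without WT oxLDL replicate 1, 19 were higher and 54 lower, and without CD36 KO oxLDL replicate 1 or 2 the calls in both directions numbered 20 and 22. The lowest against WT were Slc13a3 (-2.36 ± 0.15) and Slc28a2 (-2.11 ± 0.18), followed by Slc9a3r1 (-1.14 ± 0.15), which encodes the scaffold protein NHERF1, Slc2a6, Slc7a7 (-1.002 ± 0.18) and Slc2a9 (-0.88 ± 0.18). The mitochondrial dicarboxylate carrier Slc25a10 was lower at -0.86 ± 0.22, -0.49 without WT oxLDL replicate 1, and not called without CD36 KO oxLDL replicate 1 or 2, at -0.85 to -0.83. Of 30 mitochondrial carriers, 6 were called lower. With only the oxLDL libraries fitted, the calls of Slc7a7, Slc2a9, Slc15a3 and Slc25a10 were lost as well as that of Slc2a6, with adjusted p of 0.0584, 0.0672, 0.149 and 0.137.

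Slc7a5 stood at 14.6, 18.7 and 17.02 CPM in WT oxLDL and 34.9, 33.6 and 31.6 in CD36 KO oxLDL. The genotypes did not overlap, and CD36 KO was higher by 0.99 ± 0.15. Among the members called in control medium, Slc7a5, Slc43a3, Slc20a2 and Slc5a6 were also called higher under oxLDL, and Slc46a3 (-0.49 ± 0.15) and Slc16a10 (-0.47 ± 0.15) also called lower. The call of Slc46a3 was lost without any control library, CD36 KO oxLDL replicate 1 or 2, or WT oxLDL replicate 2, at -0.56 to -0.37 (adjusted p up to 0.165). That of Slc16a10 held without WT oxLDL replicate 1 and was lost without any other library, at -0.52 to -0.34 (adjusted p up to 0.121). Slc43a3 was not called without CD36 KO oxLDL replicate 1 or 2 or WT oxLDL replicate 2, at 0.60 to 0.64 (adjusted p up to 0.0811). B cell markers summed to 14.6 to 27.6 CPM in WT oxLDL and 128 to 163.5 in CD36 KO oxLDL, and mesothelial and fibroblast markers to 617 to 843 and 1700.0 to 2092 CPM; their part in these differences was not tested.

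**Figure D4:**
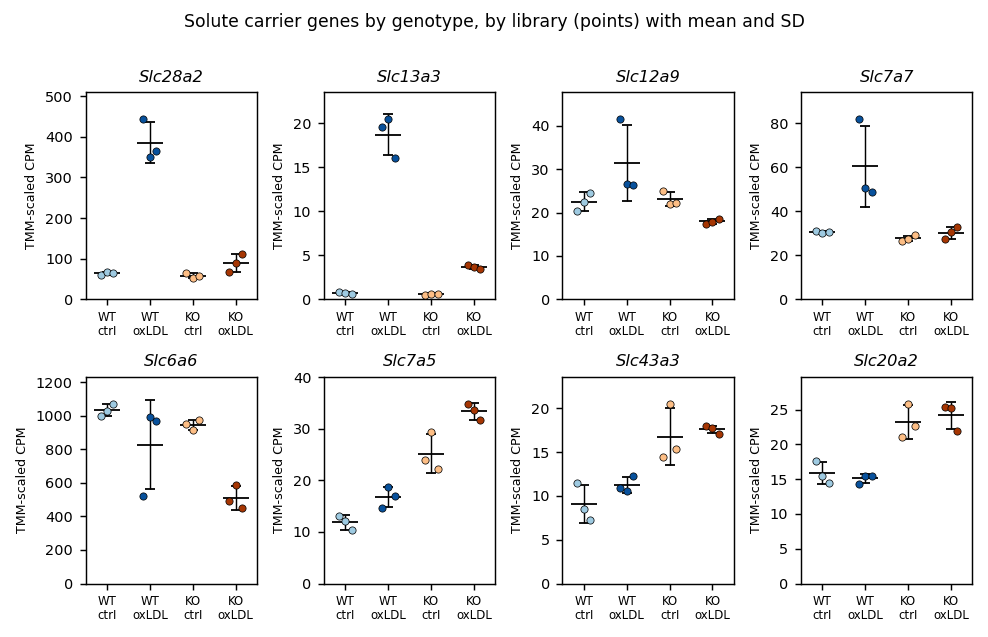
TMM-scaled CPM (y axis, from 0) of 8 members in the 4 groups (x axis). Points are libraries, the horizontal bar is the mean and the whiskers are the SD of 3 libraries. Slc28a2 and Slc13a3 are high in WT oxLDL, Slc7a5, Slc43a3 and Slc20a2 are higher in CD36 KO in both media, and WT oxLDL replicate 1 (leftmost point) stands apart in Slc12a9, Slc7a7 and Slc6a6.

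The 9 members under 5 CPM over all libraries are given by level, as means ± SD of 3 libraries in WT control, WT oxLDL, CD36 KO control and CD36 KO oxLDL. Each passed the level only through a group where it was high, so differences between its groups partly follow from the choice. The glutamate importer Slc1a2 stood at 0.304 ± 0.0519, 3.91 ± 0.673, 0.267 ± 0.0511 and 5.66 ± 0.745 CPM. The fatty acid transporter Slc27a6 stood at 5.05 ± 0.322, 0.503 ± 0.386, 5.95 ± 0.897 and 0.570 ± 0.0703 CPM. In both genotypes Slc1a2 was high in oxLDL libraries and Slc27a6 in control libraries. The glycine transporter Slc6a9, which shares 27.8% of its exonic bases with Ccdc24 on the opposite strand, stood at 1.39 ± 0.271, 2.73 ± 0.220, 3.24 ± 0.475 and 5.14 ± 0.420 CPM, and the amino acid transporter Slc38a4 at 1.84 ± 0.344, 0.823 ± 0.364, 5.12 ± 1.49 and 2.92 ± 0.321 CPM. Slc37a1 stood at 5.90 ± 0.0861, 2.22 ± 0.205, 4.87 ± 0.454 and 2.28 ± 0.410 CPM. The anion exchanger Slc4a3 stood at 2.13 ± 0.171, 1.84 ± 0.429, 5.98 ± 0.790 and 3.96 ± 1.17 CPM. The sodium-proton exchangers Slc9a5 and Slc9a7 stood at 2.47 ± 0.164, 2.15 ± 0.786, 4.91 ± 0.448 and 4.39 ± 2.04 CPM and at 6.30 ± 0.698, 3.04 ± 1.154, 4.80 ± 0.296 and 3.41 ± 0.642 CPM. The scaffold gene Slc9a3r2 stood at 4.42 ± 0.786, 2.77 ± 1.06, 7.59 ± 2.15 and 4.02 ± 0.0757 CPM, and with Slc4a3 and Slc9a5 it was highest in CD36 KO control.

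A list of carriers under other symbols had 19 tested genes, of which 5 rose and 3 fell in WT and 4 rose and 4 fell in CD36 KO. Of all tested genes with a mean of at least 5 CPM, 22.9% rose and 17.5% fell in WT. In CD36 KO these shares were 14.1% and 14.4%. That level was not required of this list or of the accessory genes below, and their counts are given as description. Slco3a1, an organic anion transporter, stood at 8.83 ± 0.992 CPM in WT control and 244 ± 12.6 in WT oxLDL, and at 22.97 ± 2.12 and 163 ± 22.4 in CD36 KO (SD, n = 3). It rose by 4.79 ± 0.16 and 2.82 ± 0.14, and its interaction was called (-1.96 ± 0.19, adjusted p = 0.00146, edgeR). Slco2b1 fell from 16.6 ± 1.41 to 0.226 ± 0.0794 CPM in WT and from 8.78 ± 1.18 to 0.0883 ± 0.0334 in CD36 KO. Mpc1, a subunit of the mitochondrial pyruvate carrier, was lower in CD36 KO than in WT in control medium, at 33.9 ± 2.60 against 68.1 ± 1.02 CPM (-1.01 ± 0.12, adjusted p = 0.000518, edgeR). Of 9 genes for accessory proteins and regulators of carriers, 1 rose and 4 fell in WT and 1 rose and 1 fell in CD36 KO. The kinase gene Sgk1, whose product raises the surface level of several carriers, was the one that rose, by 0.85 ± 0.10 and 0.77 ± 0.10.

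The authors' deposited tables of pairwise comparisons call, at a false discovery rate under 0.05, 28 members higher and 16 lower under oxLDL in WT, and 40 and 34 in CD36 KO. For CD36 KO against WT the authors' deposited tables call 26 higher and 29 lower of 137 listed members in control medium, and 3 and 5 under oxLDL. Of these calls in the authors' deposited tables, 44, 51, 11 and 8 were made here in the same direction, in the order given. In control medium the authors' deposited table calls more members than the fit over all 12 libraries, and under oxLDL fewer. The share of all genes called in the deposited tables is not given here, so these counts do not set the members apart from other genes.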

How the data were processed

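Per the labels' protocols, total RNA of peritoneal macrophages was sequenced; FastQC and the build mm10 come from the submitters' processing notes, while aligner, counter, annotation and strandedness were not given in the sources used here. The authors deposited whole read counts per gene and RPKM (counts per gene length and library size) for 12 libraries. The authors also deposited tables of pairwise comparisons with log2 fold changes, p-values and FDR, from which only counts of calls are quoted; no sample came from an unmapped column.

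Counts were fitted in edgeR 4.0.16 (R 4.3.3) with TMM factors, filterByExpr (minimum count 10, minimum total 15; 16281 genes tested) and the quasi-likelihood test, all 12 libraries in 1 model with 1 mean per group, and Benjamini-Hochberg adjustment over all genes. Every adjusted p is from this model unless DESeq2 1.42.0 is named, and the SE is the log2 fold change over the root of F. The model was tested on simulated data. A call is an adjusted p under 0.05. Total counts of 35257762 to 65135955 limit counting error only. Coordinates are those of GENCODE M21 on GRCm38, where all 147 members were found by identifier. Classes were assigned by family number and known substrate.

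The members, classes and lists were chosen with earlier results of these data known. The rule for named genes took, per class and oxLDL comparison, up to 2 of the largest rises and falls, the called members (at most 10) of the other comparisons, the member of highest RPKM per class and the 9 members under the level; 1 gene so named is not reported here. Alternatives were other scaling (upper quartile, RLE), no filter, other levels, removal of a gene-length trend, fits of only the groups compared, a replicate block, DESeq2, each library left out, and a robust fit added after the data were seen. Deviations from group means were also correlated between libraries of equal replicate number in different groups.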

Additional observations from a re-analysis of the deposited data

Results flagged for a closer look

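Slc28a2 and Slc13a3 responded to oxLDL less in CD36 KO than in WT by the test of the difference itself, at -1.98 and -2.08 on the log2 scale (edgeR interaction, adjusted p = 0.00401 and 0.00291). Slc13a3 lay above 5 CPM only in WT oxLDL, so its high level there is part of how it came to be tested. Slc12a9, a cation-chloride cotransporter family member, was higher in every WT oxLDL library than in every WT control library and lower in every CD36 KO oxLDL library than in every CD36 KO control library. Its levels were 20.3, 22.6 and 24.6 CPM and then 41.5, 26.6 and 26.3 in WT, and 24.9, 21.97 and 22.3 and then 17.4, 17.9 and 18.6 in CD36 KO. The fall of Slc12a9 in CD36 KO was not called with all libraries. Its call in WT was lost without any library outside WT oxLDL, at 0.41 to 0.57. The difference of its responses was -0.84 and was not called (edgeR, adjusted p = 0.179). Without WT oxLDL replicate 1 that difference was -0.61 and called. The scaffold gene Slc9a3r1 was placed in the same way, with 170.3, 168 and 169 CPM and then 322, 221 and 218 in WT, and 142, 159 and 150.2 and then 106, 113 and 126 in CD36 KO. The fall of Slc9a3r1 in CD36 KO was not called with all libraries. With only the CD36 KO libraries fitted it was called (-0.33, edgeR, adjusted p = 0.0262). With only the WT libraries fitted the rise in WT was not called (edgeR, adjusted p = 0.0604). The difference of its responses was -0.97 and was not called (edgeR, adjusted p = 0.0702). Leaving out WT oxLDL replicate 1 gave -0.78, which was called. How many of all genes are placed as these members are was not counted.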

How the results depend on the processing

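The number of members called was 64 in WT and 51 in CD36 KO under oxLDL, 11 and 38 for genotype in control medium and under oxLDL, and 2 for the interaction. With each library left out in turn these counts ranged over 54 to 90, 41 to 83, 3 to 42, 20 to 73 and 2 to 25, and the upper end was in each case without WT oxLDL replicate 1, which leaves 2 libraries in that group. For genotype in control medium the count was 21 with the gene-length trend removed, 68 when only the control libraries were fitted, 18 among genes of at least 1 CPM and 4 among those of at least 20. For genotype under oxLDL it was 9 when only the oxLDL libraries were fitted and 25 at 20 CPM. For the interaction it was 10 with DESeq2 and 1 at 20 CPM. Stricter levels test fewer members by construction; the cause of the other shifts was not tested. The other alternatives for these counts stayed within 1.5 times. Between libraries of equal replicate number, correlations of deviations were -0.399 to 0.357. Libraries of unequal number were not compared, so this cannot decide whether the numbers pair samples. With a replicate block the counts were 61, 48, 8, 32 and 2. Slc25a5, not called, changed sign: in WT to -0.00472 with the length trend removed and over a range of -0.156 to 0.249 with 1 library left out, and in CD36 KO to 0.0634 (RLE), 0.00165 (no filter), 0.0295 (length trend), 0.0558 (only these groups), 0.0646 (DESeq2) and over -0.1 to 0.0523 with 1 library left out. Of the values of called named genes, 1778 kept their direction and call under an alternative and 100 kept the direction alone.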
